A study of Mus musculus with 2 samples.

Results

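CTCF summits in coding exons were taken from the optimal list of reproducible peaks of a mouse heart ChIP-seq experiment. A peak was kept when its summit, the base of highest signal, lay inside a coding sequence record of the GENCODE M21 annotation and more than 1000 bp from the 5′ end of every annotated gene. Of 43380 optimal peaks on chromosomes 1 to 19, 1043 met this rule, a share of 2.40% (95% exact binomial interval 2.26 to 2.55%). Another 359 coding summits lay nearer to a gene 5′ end and were left out. Just inside the limit were summits in Spsb2, Etv2 and Ddit4, at 1003, 1014 and 1027 bp from the nearest 5′ end and with signal values of 141, 73.7 and 119.9. Just outside it were Zfp36l2, Adgre5 and Hcrt, at 993, 989 and 986 bp and with signal values of 17.4, 222 and 114.

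The tissue was whole heart of B6NCrl mice collected on postnatal day 0, immunoprecipitated with an antibody to CTCF. The experiment has 1 group of 2 libraries, replicates 1 and 2, which the labels tie to a single tissue sample and a single donor identifier, and sex was not collected. Nothing states that the libraries came from separate hearts, and their spread may be technical. There was no untreated or mutant group to test against. The peak lists hold no read counts, so sequencing depth is unknown, and intervals on shares cover counting error only. The tissue identity cannot be checked from CTCF peaks.

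CTCF is a DNA-binding protein with a row of zinc fingers that reads a long, directional motif. It halts the cohesin ring as it extrudes chromatin loops, so that bound sites mark the borders of loops and domains and can shield promoters from enhancers. Most of its sites lie outside genes or in introns, and those in coding exons must share their bases with codons and, near exon edges, with splice signals.

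The sequences at the motif are shown first, because they place each site in its exon. Each is 54 bases of the mm10 reference (RefSeq GRCm38.p6 sequence) written 5′ to 3′ on the strand of the motif. The capitals mark the match to a CTCF core consensus of 14 bases. The first 3 are the strongest summits with a core free of mismatches in an only, an internal and a last coding exon. In Crh, the corticotropin-releasing hormone gene, the core reads in the direction of the gene, whereas in Dglucy and Pgls it lies on the antisense strand. Dglucy encodes the mitochondrial D-glutamate cyclase and Pgls the second enzyme of the pentose phosphate pathway.
Crh (chr3:19694042-19694095, minus strand): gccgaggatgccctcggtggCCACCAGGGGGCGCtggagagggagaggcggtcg
Dglucy (chr12:100841386-100841439, minus strand): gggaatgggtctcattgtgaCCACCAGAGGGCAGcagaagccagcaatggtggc
Pgls (chr8:71596095-71596148, minus strand): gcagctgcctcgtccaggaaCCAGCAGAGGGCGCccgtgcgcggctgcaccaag

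Gdf15, a stress-induced cytokine gene, and Spi1, which encodes the blood cell transcription factor PU.1, held the strongest and the third strongest summits in coding exons. Both printed cores had 1 mismatch, and the one at Gdf15 is 1 of 2 equally good matches near that summit. Ttn, which encodes the giant sarcomere spring titin, held more of these summits than any other gene. It had a core on each strand, in coding exon 145 (antisense) and coding exon 304 (sense) of 312. The core at exon 145 crosses the splice donor, with the boundary after core base 1.
Gdf15 (chr8:70629920-70629973, plus strand): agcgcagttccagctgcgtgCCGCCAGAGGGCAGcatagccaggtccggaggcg
Spi1 (chr2:91115236-91115289, plus strand): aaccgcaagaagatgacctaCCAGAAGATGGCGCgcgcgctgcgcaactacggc
Ttn (chr2:76843355-76843408, plus strand): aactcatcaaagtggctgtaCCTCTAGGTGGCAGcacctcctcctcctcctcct
Ttn (chr2:76715153-76715206, minus strand): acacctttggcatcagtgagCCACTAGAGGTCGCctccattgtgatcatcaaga

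In the next set the core runs across the edge of the exon. In Rsad1, Npas1, Cog3 and Arntl2 the core reads with the gene and crosses a splice acceptor. The exon begins after core base 7, so the AG that closes the intron is also the AG at bases 6 and 7 of the core. In Dnaic1, which encodes an intermediate chain of ciliary dynein, an antisense core crosses a splice donor, with the boundary after core base 1. These members were chosen for print after their values were seen.
Rsad1 (chr11:94544142-94544195, minus strand): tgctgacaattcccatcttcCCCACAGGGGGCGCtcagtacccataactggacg
Npas1 (chr7:16463390-16463443, minus strand): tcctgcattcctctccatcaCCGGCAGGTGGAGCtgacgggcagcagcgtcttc
Cog3 (chr14:75722165-75722218, minus strand): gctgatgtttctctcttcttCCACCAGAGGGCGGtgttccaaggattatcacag
Arntl2 (chr6:146825140-146825193, plus strand): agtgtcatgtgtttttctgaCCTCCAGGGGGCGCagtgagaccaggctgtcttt
Dnaic1 (chr4:41614315-41614368, minus strand): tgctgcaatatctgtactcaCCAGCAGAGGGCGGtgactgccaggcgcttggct

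The last set are coding matches free of mismatches that had no optimal summit. Mapk7 encodes the kinase ERK5, Chl1 a neural cell adhesion molecule, and Olfr784 and Olfr812 odorant receptors with a core of the same letters.
Mapk7 (chr11:61489971-61490024, plus strand): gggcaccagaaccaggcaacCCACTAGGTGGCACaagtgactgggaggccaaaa
Chl1 (chr6:103746287-103746340, plus strand): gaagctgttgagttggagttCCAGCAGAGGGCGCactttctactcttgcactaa
Olfr784 (chr10:129388028-129388081, minus strand): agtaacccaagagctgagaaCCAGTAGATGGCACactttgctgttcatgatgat
Olfr812 (chr10:129842594-129842647, plus strand): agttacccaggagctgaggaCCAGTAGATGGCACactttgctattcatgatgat

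Coding exons carried CTCF summits at 1.92 times the density of the genome, and few genes carried more than 1. The coding sequence that could meet the rule, called eligible here, came to 30.8 Mb, or 1.25% of chromosomes 1 to 19. It held 33.8 summits per Mb (exact Poisson interval 31.8 to 35.96), against 17.6 per Mb for all optimal peaks over chromosomes 1 to 19. By chromosome the density ran between 23.6 and 51.3 per Mb. The summits fell in 979 of 19558 genes with eligible coding sequence (5.01%), of which 919 held 1 and 57 held 2. Ttn held 4, and Soga1 and Syne2, which encodes the nuclear envelope protein nesprin-2, held 3 each. For 1037 summits the 1 transcript assigned to the base was protein-coding, and for the other 6 it was marked for nonsense-mediated decay. A second gene overlapped 90 summits, and for 69 of them it lay on the opposite strand. The peaks had a median width of 224 bp, of which a median of 75% was coding, and 320 (30.7%) lay wholly in coding sequence.

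Signal, the peak caller's value for each peak, spanned 8.05 to 395 in the pooled optimal list, with a median of 51.2 and quartiles of 25.7 and 108. Against this stood medians of 47.6 for promoter summits within 1000 bp of a 5′ end, 66.2 for other exons, 57.4 for introns and 75.1 for intergenic sequence. Over all other optimal peaks the median was 61.7, a log2 difference of -0.27. Both libraries gave a difference in the same direction, -0.32 in replicate 1 and -0.27 in replicate 2 (mean -0.30 ± 0.04, SD, n = 2). The libraries' own medians were 28.0 and 24.4 in coding exons, against 35.0 and 29.4 for the other peaks. Of the 1043 summits, 459 (44.0%) reached the median of the whole list, 67 (6.42%) were among its strongest 10% and 107 (10.3%) among its weakest 10%.

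The libraries gave nearly the same picture for strong summits and a looser one for weak summits. A peak with its summit within 100 bp was present in both relaxed lists for 1013 of the 1043 (97.1%), and 705 of these had the higher value in replicate 1. The median log2 ratio of replicate 2 to replicate 1 was -0.19 with an SD of 0.54 across summits, against -0.22 and 0.49 for other peaks. The SD between libraries had a median of 11.2% of the mean for summits at or above the list's median signal and 23.0% for those below it. When each library was cut to as many of its strongest peaks as the optimal list holds, 860 summits (82.5%) were found in both, against a background of 83.4% of all optimal peaks. A summit of the stricter conservative list lay within 100 bp of 911 (87.3%), against a background of 89.3%. Neither share stands above its background. Among summits of the conservative list, the share found in both libraries was 89.6% in coding exons and 87.9% over the whole list, with no interval computed.

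**Figure D1:**
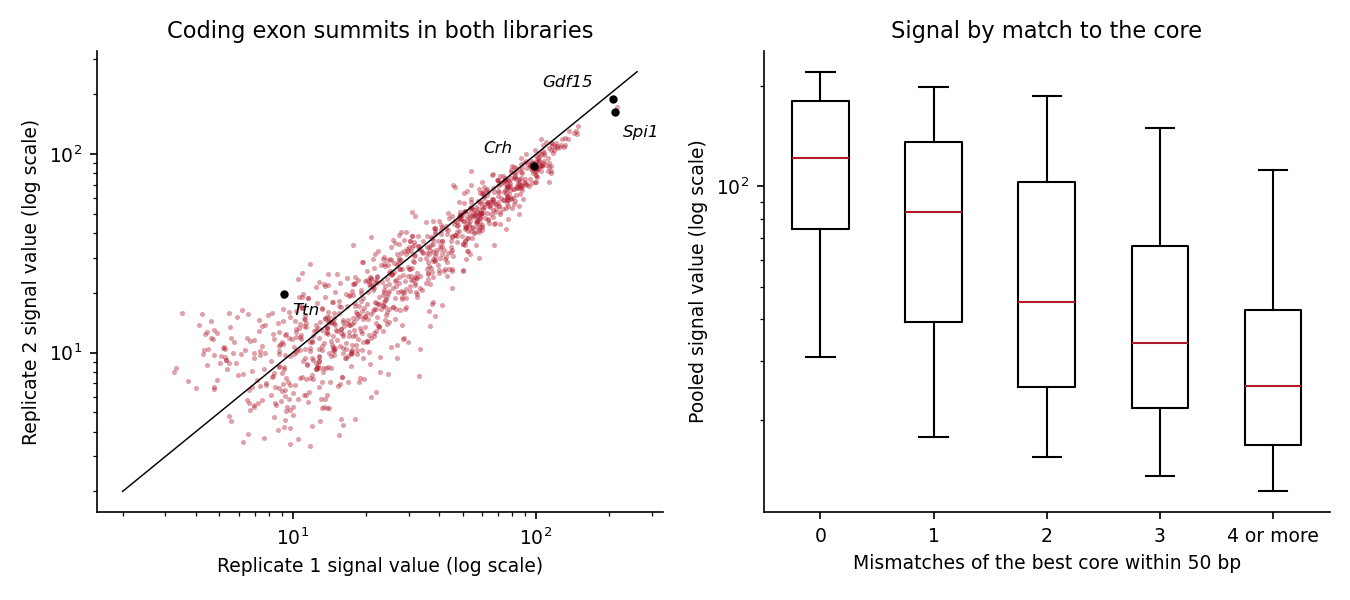
Left, signal value of the 1013 coding exon summits found in both relaxed lists, replicate 1 on the x axis and replicate 2 on the y axis (log scales), with the line of equal values and 4 named genes in black. Right, pooled signal value (log scale) by the number of mismatches of the best core within 50 bp of the summit, with boxes for quartiles, red lines for medians and whiskers for the 5th and 95th percentiles. The points narrow towards the line at high signal, and the medians step down from 122 at 0 mismatches to 25.3 at 4 or more.

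Of the 15 strongest summits, 9 lay in the last coding exon of their transcript, against 209 of all 1043 (20.04%). Among all summits at or above the list's median signal the share was 21.8%, so the contrast belongs to this small set. Gdf15 had signal values of 208 and 189 in the 2 libraries (mean 199 ± 13.02, SD, n = 2), with the summit in coding exon 2 of 2 and 23 CpG within 100 bp. The gene model Gm16253 had 214 and 173 (194 ± 29.3), in coding exon 2 of 2. Spi1 had 211 and 163 (187 ± 33.5), in coding exon 5 of 5. These 3 stood apart from the next, Def6, with 149 and 139 (144 ± 7.13). After them came A830031A19Rik at a pooled signal of 277, Zfp219 at 275, the fatty acid desaturase gene Scd2 at 269, Pgls at 265, Dglucy at 254, and the kinesin genes Kif27 at 254 and Kif13a at 249. Rinl, Spata31d1d, Ksr1 and 4930564D02Rik closed the 15 strongest at 234 to 241. Kif13a held its core across a splice donor and Ksr1, a scaffold of the Ras to MAP kinase cascade, held one without a mismatch across a splice acceptor. The Ksr1 core is antisense, with the boundary after core base 13. Only some of the spanning protein-coding transcripts of Ksr1 code the summit base.

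The 5 weakest had pooled signal values of 8.05 to 11.1 and no core with 2 or fewer mismatches. They were 4921517D22Rik at 8.05, the heparan sulfate enzyme gene Ndst1 at 8.62, Bola1 at 9.65, the nuclear receptor coactivator gene Ncoa5 at 10.2 and Ppfia1, which encodes liprin alpha 1, at 11.1. Only Bola1, with 5.59 and 4.54, and Ppfia1, with 4.02 and 6.61, had a value in both libraries. Ndst1 and Ncoa5 had no replicate 1 peak within 100 bp, and 4921517D22Rik had no replicate 2 peak there.

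By exon class, summits leaned towards first and last coding exons. First coding exons held 8.63% of summits (95% interval 6.996 to 10.5%), against 5.74% of eligible coding bases. Last coding exons held 20.04% (17.6 to 22.6%), against 16.3% of bases. Internal exons held 66.0% (63.0 to 68.8%), against 70.6% of bases. Genes with a single coding exon held 5.37% (4.08 to 6.92%), against 7.30% of bases. The interval excludes the share of bases in each of the 4 classes. Along the coding sequence, cut into 5 equal pieces, the shares of summits were 15.1, 17.8, 21.1, 22.4 and 23.5%, against 16.4, 19.8, 20.8, 21.1 and 21.9% of bases, which fall short at the start because of the rule on 5′ ends.

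The exon classes also differed in signal and composition. Median signal was 39.6 in first, 52.3 in internal, 56.2 in last and 36.3 in only coding exons. The order was the same in each library: replicate 1 gave 22.3, 27.3, 31.1 and 19.1, and replicate 2 gave 18.96, 24.8, 26.7 and 17.7. A core with at most 2 mismatches lay near 57.8% of summits in first, 69.5% in internal, 68.4% in last and 55.4% in only coding exons. CpG counts ran the other way, with medians of 12.5, 5, 8 and 15 within 100 bp of the summit. Exons that held a summit had a median length of 219 bp, against 199 bp for the exon of an eligible base. Exons of 1000 bp or more held 24.3% of summits and 23.6% of bases, and exons of 100 bp or less held 9.88% and 11.9%.

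**Figure D2:**
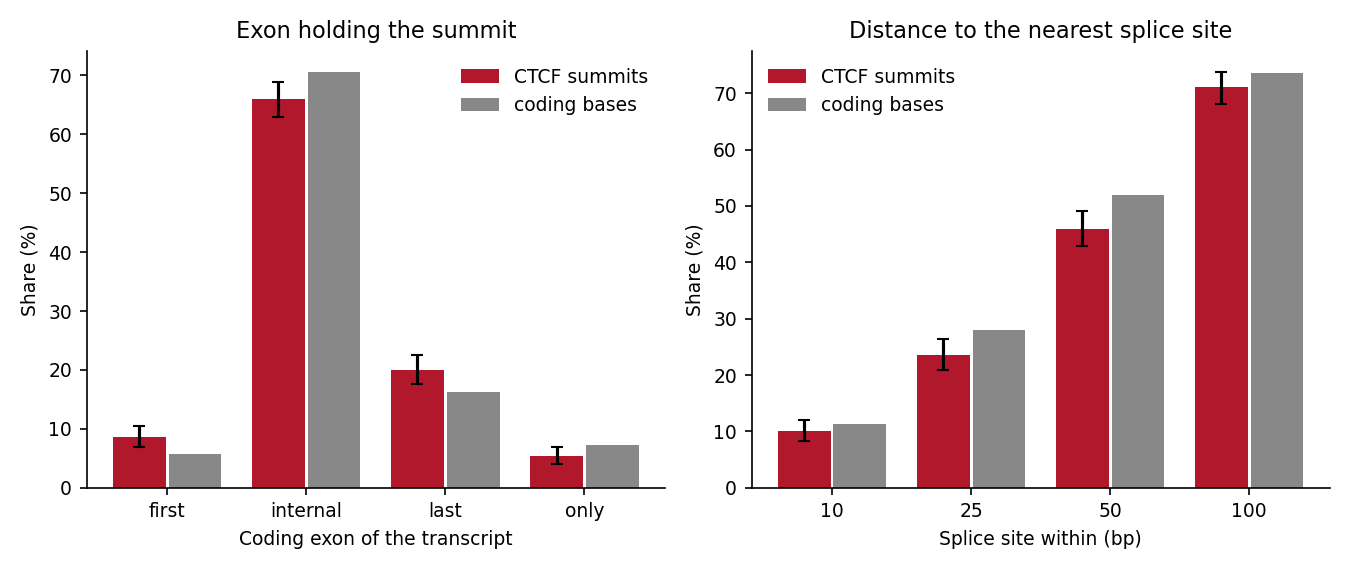
Left, share (%) of the 1043 CTCF summits (red) and of eligible coding bases (grey) in first, internal, last and only coding exons. Right, share (%) of the 987 summits in transcripts with several coding exons, and of such bases, that have a splice site within 10, 25, 50 or 100 bp; bars on red columns are 95% exact binomial intervals. Last exons held 20.04% of summits against 16.3% of bases, and a splice site lay within 50 bp of 46.0% of summits against 51.9% of bases.

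Summits lay a little deeper inside exons than coding bases do. Among the 987 summits in transcripts with more than 1 coding exon, the median distance to the nearest splice site was 56 bp, against 48 bp for bases. A splice site lay within 50 bp of 46.0% of them (42.9 to 49.2%), against 51.9% of bases. Within 25 bp the shares were 23.6% and 28.1%, and within 10 bp they were 10.03% (8.23 to 12.1%) and 11.4%. Within 100 bp they were 71.0% (68.1 to 73.8%) and 73.6%. The intervals at 10 and 100 bp include the share of bases. The acceptor was within 50 bp for 24.7% of summits (22.1 to 27.5%) and 29.1% of bases. The donor was that near for 24.3% (21.7 to 27.1%) and 26.9%, where the interval includes the share of bases. Several protein-coding transcripts of the gene spanned 651 of the summits. Of these, 514 (79.0%, 75.6 to 82.0%) lay in sequence that every spanning transcript codes, against 83.2% of bases. Median signal was 51.0 for these 514 and 47.1 for the summits in sequence that only some transcripts code. Ptprc, the CD45 gene, is the known case in human lymphocytes of CTCF at an alternatively spliced exon. In this heart tissue it had 3 optimal summits, none of them in a coding exon.

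A core with at most 2 mismatches lay wholly within 50 bp of the summit for 704 of the 1043 (67.5%, 64.6 to 70.3%), below the background of 73.4% of all optimal peaks. With up to 3 mismatches allowed, the shares were 91.3% in coding exons and 91.2% over all optimal peaks. Signal was lower with each added mismatch. The 83 summits with a full match had a median of 122, the 291 with 1 mismatch 83.6, the 330 with 2 mismatches 45.2, the 248 with 3 mismatches 33.99, and the other 91 had 25.3. Both libraries kept that order, with 61.0, 42.7, 25.7 and 19.8 in replicate 1 and 57.8, 40.1, 22.3 and 15.9 in replicate 2 for 0 to 3 mismatches.

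Most of these 704 cores, 627 (89.1%), were made of coding bases alone, while 52 crossed a splice acceptor and 15 a splice donor. Median signal was 67.6 for cores inside the coding segment, 90.6 across acceptors and 57.0 across donors. Of the 52 at acceptors, 39 read with the gene, and in 37 of those 39 the exon began after core base 7. Rsad1 showed this with signal values of 115 and 87.5 in the 2 libraries, Npas1, a neuronal transcription factor gene, with 103 and 92.7, and Cog3, a Golgi trafficking complex gene, with 95.6 and 92.7. Arntl2, a partner of the circadian clock factor CLOCK, had 99.7 and 77.6. Of the 15 at donors, 11 lay antisense, all with the boundary after core base 1, as in Dnaic1 with 105 and 100.3.

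Nearly all introns end in AG, and the consensus holds an AG at bases 6 and 7. The same register prevailed among core matches whether or not a summit lay there. At 169277 acceptors of coding exons, 702 sense matches crossed the boundary, and in 545 (77.6%) it fell after core base 7. Matches in that register had an optimal summit within reach in 62 of 545 cases (11.4%, 8.83 to 14.3%), some of them with the summit on the intron side. The next most common register, after core base 4, had 4 of 114 (3.51%, 0.964 to 8.74%). Antisense matches across acceptors had 39 of 580 (6.72%, 4.82 to 9.08%). By register these were 20 of 265 (7.55%) after core base 1, 11 of 90 (12.2%, 6.26 to 20.8%) after base 3 and 4 of 138 (2.90%) after base 4. Antisense matches across donors had 15 of 242 (6.20%, 3.51 to 10.02%), of which 14 of 136 (10.3%, 5.74 to 16.7%) had the boundary after core base 1. The intervals of the 3 most occupied registers overlap. With mismatches limited to 1, a summit lay at 38.9% of matches across acceptors (51 of 131, 30.5 to 47.8%) and at 36.8% across donors (14 of 38, 21.8 to 54.01%), against 26.2% (23.8 to 28.7%) of the 1302 matches wholly inside coding sequence. The interval for acceptors does not overlap that for coding sequence, and the interval for donors does.

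**Figure D3:**
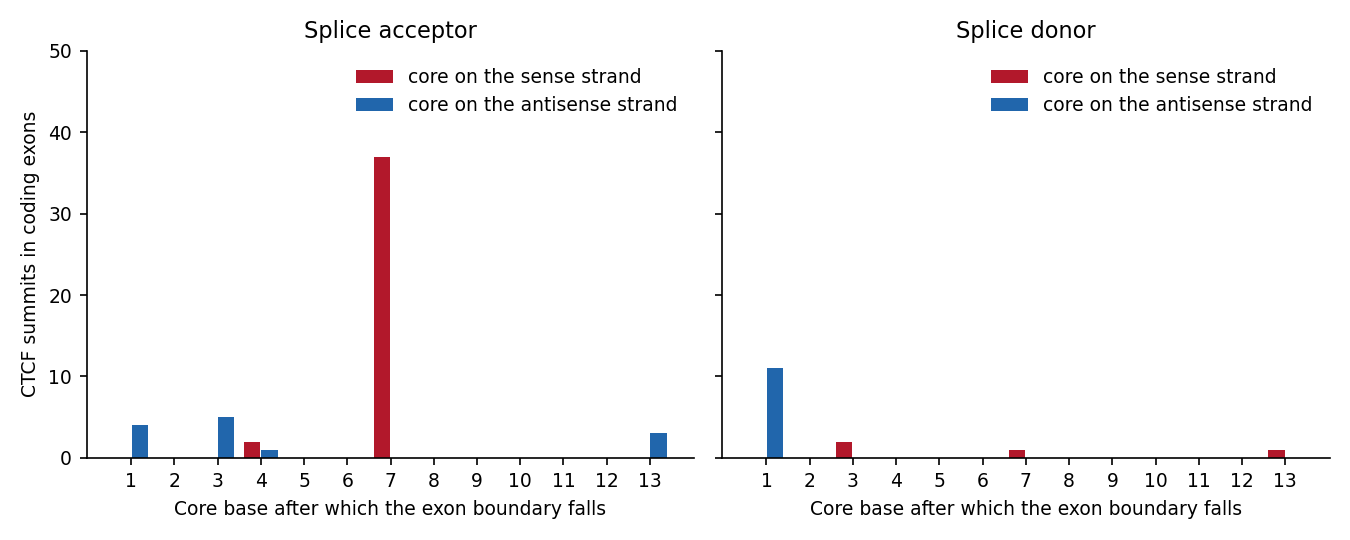
Number of CTCF summits (y axis) whose core crosses a splice acceptor (left) or donor (right), by the core base after which the exon boundary falls (x axis, counted from the 5′ end of the core), for cores on the sense (red) and antisense (blue) strand. At acceptors 37 of 39 sense cores have the boundary after base 7, and at donors all 11 antisense cores have it after base 1.

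Most coding sequence that resembles the core carried no summit. The eligible coding bases held 13083 matches with at most 2 mismatches, and 705 of them (5.39%, 5.01 to 5.79%) had an optimal summit placed so that the match lay within 50 bp. The background of 5.39% is that same count, taken as the reference for subsets of coding matches. Matches free of mismatches were occupied in 82 of 105 cases (78.1%, 69.0 to 85.6%), against 81.9% in introns and 79.2% in intergenic sequence, both inside the interval. With 1 mismatch 21.6% were occupied (19.3 to 24.1%), against 26.6% in introns and 20.8% in intergenic sequence. With 2 mismatches it was 3.09% (2.78 to 3.42%), against 3.45% and 2.68%. Outside repeat-masked sequence the 1-mismatch shares were higher, 32.1% in introns and 32.7% in intergenic sequence, while only 2.78% of summits in coding exons lay on masked bases.

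The 3 places differed more once matches were split by CpG content. For coding matches with 1 mismatch, the occupied share was 15.5% (11.3 to 20.5%) with 0 to 2 CpG within 100 bp, 20.4% with 3 to 5, 20.98% with 6 to 9 and 35.98% (28.6 to 43.8%) with 10 or more. The shares in introns over the same classes were 23.8, 30.6, 38.2 and 54.1%, and in intergenic sequence 14.9, 34.1, 53.7 and 65.5%. Coding matches lay below intronic ones in all 4 classes, with intervals that did not overlap, and below intergenic ones in the 3 classes with 3 or more CpG. Distance to the splice site made little difference, with 22.6% occupied within 50 bp of one and 22.3% beyond.

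**Figure D4:**
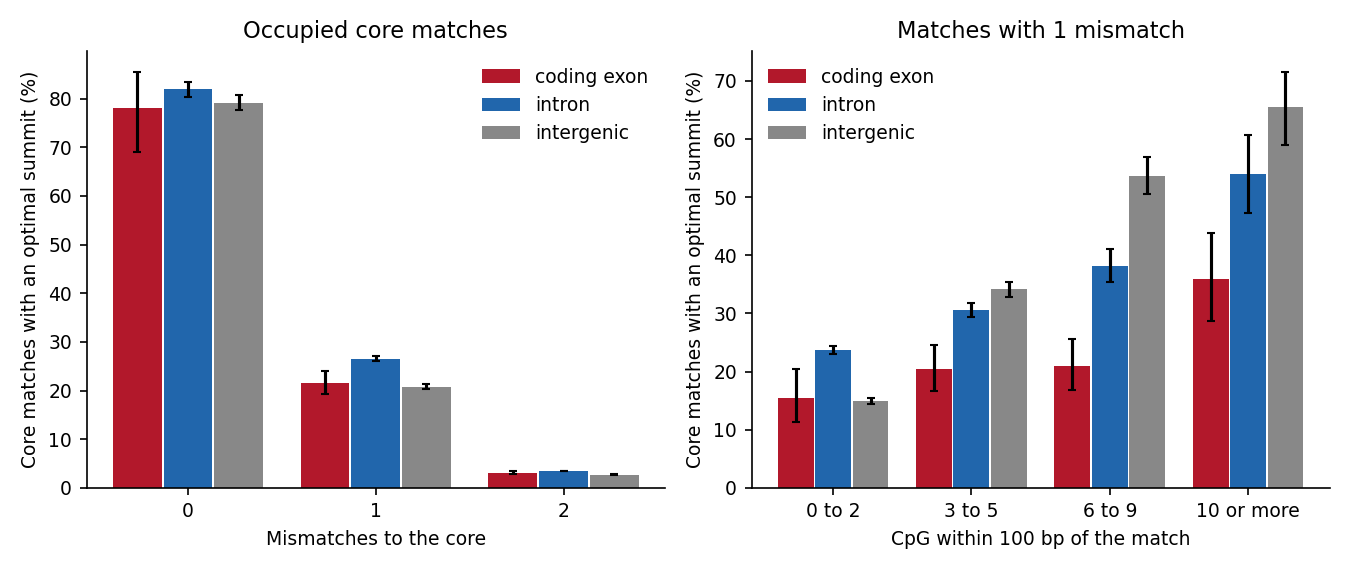
Share (%) of core matches with an optimal CTCF summit in coding exons (red), introns (blue) and intergenic sequence (grey), by number of mismatches (left) and, for matches with 1 mismatch, by CpG count within 100 bp (right). Bars are 95% exact binomial intervals. Matches in coding exons reach 35.98% at 10 or more CpG, against 54.1% in introns and 65.5% in intergenic sequence.

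The 23 full matches without an optimal summit lay in 23 genes. For 15 of them neither library's relaxed list held a peak within reach, for 8 at least 1 library did, and Pif1, which encodes a DNA helicase, had one in both, with signal values of 5.07 and 3.92. The highest relaxed values among the 23 were 10.6 in replicate 1 at Lnpk and 7.42 in replicate 2 at Sec14l2. The growth factor receptor gene Erbb3 had a value of 5.07 in replicate 1 and Klf15, a transcription factor of heart and muscle metabolism, 3.59 in replicate 1. Chl1 had 3.38 in replicate 2. Median CpG count was 5 around occupied full matches and 2 around unoccupied ones. Olfr784 and Olfr812 each had 1 CpG within 100 bp and no peak in either relaxed list.

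The summits sat in CpG-rich coding sequence. The median count was 6 CpG within 100 bp, against 4 around eligible coding bases, and GC content was 57.7% against 50.7%. Classes of 10 or more CpG held 29.3% of summits (26.6 to 32.2%) and 7.97% of bases, and classes of 0 to 2 CpG held 13.4% and 31.6%. Fewer summits had a core as CpG rose: 80.0% (72.4 to 86.3%) with 0 to 2, 71.1% with 3 to 5, 64.7% with 6 to 9 and 60.5% (54.7 to 66.0%) with 10 or more. Median signal in these classes was 51.2, 51.3, 44.8 and 59.2. Promoter summits had a median of 10 CpG, other exons 3, and introns and intergenic sequence 2 each. Another optimal peak lay within 5 kb of 41.3% of summits in coding exons, against 41.6% of promoter, 40.7% of other exon, 32.8% of intronic and 34.3% of intergenic ones. The share in coding exons was thus close to that in promoters and other exons.

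Cores under coding summits lay more often against the gene than with it, as did core matches in coding sequence at large. Of 679 summits with a single best core, 292 (43.0%, 39.2 to 46.8%) read with the gene. Among matches wholly in coding sequence the share was 46.4%, which lies inside that interval. The sets are unlike, because the 679 include cores across splice sites, which at acceptors were mostly sense. Median signal was 73.98 for sense and 63.4 for antisense cores. For 602 summits with 1 best core made of coding bases alone, the reading frame could be followed through the codon position of the core base nearest the 5′ end of the gene. Sense cores had 80, 29 and 137 summits at codon positions 1, 2 and 3, from 1890, 1153 and 3024 matches. Antisense cores had 96, 94 and 166, from 2049, 1516 and 3451 matches. On these like sets, sense cores at positions 1, 2 and 3 made up 13.3, 4.82 and 22.8% of the 602. They made up 14.4, 8.81 and 23.1% of the matches. The interval for the 602 excludes the share of matches at position 2 (3.25 to 6.85%). It includes that share at positions 1 (10.7 to 16.3%) and 3 (19.5 to 26.3%). Occupied shares differed most at position 2, with 3.30% of sense (2.34 to 4.50%) and 6.73% of antisense matches (5.52 to 8.11%), against 5.22 to 5.56% elsewhere. With at most 1 mismatch the shares were 22.7% for sense and 29.3% for antisense cores at position 2, with intervals (14.8 to 32.3% and 22.3 to 37.1%) that overlap.

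**Figure D5:**
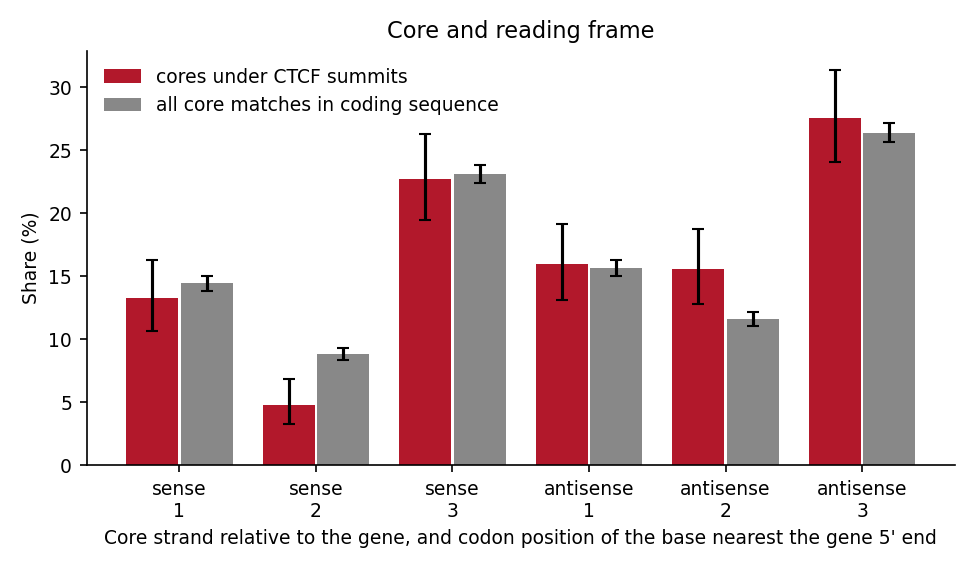
Share (%) of 602 cores under CTCF summits (red) and of 13083 core matches in coding sequence (grey), by strand relative to the gene and by codon position of the core base nearest the gene's 5′ end. Bars are 95% exact binomial intervals. Sense cores at codon position 2 make up 4.82% of cores under summits, against 8.81% of matches.

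Gene families differed widely in density, set here beside 33.8 summits per Mb over all eligible coding sequence. The Adamts genes, secreted metalloproteases of the extracellular matrix and their relatives, had 9 summits in 8 of 24 genes, or 106 per Mb (exact Poisson interval 48.7 to 202). Their signal values ran from 14.8 to 163 with a median of 21.5, against 51.2 for all summits in coding exons. Kinesin motor genes had 8 in 7 of 43 genes, or 57.1 per Mb (24.7 to 113), with a median signal of 135. Potassium channel genes had 8 in 8 of 92, or 59.5 per Mb (25.7 to 117), and solute carriers 18 in 18 of 372, or 31.3 per Mb (18.5 to 49.4). Zinc finger genes named Zfp had 10 in 9 of 385, or 13.7 per Mb (6.56 to 25.2). Odorant receptor genes had 3 among 1045, or 3.19 per Mb (0.658 to 9.32), in Olfr1368, Olfr15 and Olfr94. Vomeronasal Vmn2r genes had 0 in 121 genes with 289 kb of eligible sequence, which allows up to 10.4 per Mb when 3 counts are taken as the limit of a count of 0 (exact Poisson upper bound 12.8). The intervals for Adamts, Zfp and Olfr and both limits for Vmn2r exclude the density over all genes, and those for kinesins, potassium channels and solute carriers include it. These stems were picked from 43 name stems and classes, so some would differ from the whole by counting error alone.

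Coding exons of 5 lists of heart genes held 16 summits in 12 of 107 genes with eligible sequence (11.2%, 5.93 to 18.8%), against 5.01% of all such genes. The listed genes are long, with a mean of 4.85 kb of eligible sequence, against 1.58 kb over all genes. Per Mb they held 30.8 summits (exact Poisson interval 17.6 to 50.04), against 33.8 over all genes, which lies inside that interval. In the sarcomere list it was 1 of 24 genes, Ttn, with 4 summits. Their library values were 9.24 and 19.6 in coding exon 43, 19.4 and 9.41 in exon 145, 3.26 and 7.95 in exon 174, and 9.39 and 5.09 in exon 304. Neither library was higher throughout, and all 4 lay below the median of the list. With 111 kb of eligible sequence, Ttn is also the largest target.

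In the calcium and channel list 3 of 17 genes held a summit, against 5.01% of all genes with eligible sequence. Per Mb it was 40.3 (8.32 to 118), against 33.8 over all genes. Ank2, whose product ankyrin B anchors membrane transporters in heart cells, had 42.7 and 41.8 (mean 42.3 ± 0.68, SD, n = 2) in coding exon 17 of 46. Cacna1c, the L-type calcium channel gene, had 10.99 and 9.05, and Jph2, which ties the sarcoplasmic reticulum to the surface membrane, 6.79 and 8.12. Of 26 heart transcription factor genes 4 held 5 summits, beside the same 5.01% of all genes. Mef2d had 48.0 and 48.5 (48.2 ± 0.32), Irx4, a factor of ventricular muscle, 20.2 and 11.5, and Foxc1 4.88 and 12.6. Mef2a had 22.6 and 17.6 in its last coding exon and 10.2 and 6.87 in exon 6 of 9. This list had the highest density of the 5, at 159 per Mb (51.6 to 371), from 31.5 kb of eligible sequence.

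Among matrix and signal genes 2 of 20 had a summit, against 5.01% of all genes with eligible sequence. They were the Notch receptor gene Notch2, with 12.1 in both libraries, and the basement membrane proteoglycan gene Hspg2, with 7.22 and 5.59. Among chromatin genes it was 2 of 20, beside the same 5.01%. Per Mb the matrix and signal list held 19.3 (2.34 to 69.9) and the chromatin list 19.4 (2.36 to 70.2), against 33.8 over all genes. Kmt2a, a histone H3 methyltransferase gene, had the strongest summit of all 5 lists, with 75.4 and 53.8 (64.6 ± 15.3), and Chd7, a chromatin remodeller gene mutated in CHARGE syndrome, had 14.7 and 15.9. The 95 other listed genes with eligible coding sequence, among them all the Gata and Tbx genes listed, Nkx2-5 and the cardiac myosin genes, held none.

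Genes with several summits spread them over distinct exons. The 60 genes with 2 or more held 124 of the 1043. In Soga1 the 3 summits had library values of 87.6 and 80.1 in coding exon 8, where the core had no mismatch, 22.9 and 7.97 in exon 11, and 12.4 and 13.8 in exon 5, of 15. In Syne2 they had 37.8 and 18.0 in coding exon 20, 10.6 and 13.3 in exon 57, and 8.40 and 11.8 in exon 50, of 115. The summit in exon 57 of Syne2 lay 1 bp from the splice site, with a core free of mismatches.

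In 8 genes with 2 summits both lay in the same exon. They were Adamts5, Exph5, Fam171a2, Prrt3, Sema4a, Sorbs2, Sp6 and Tchh. In Sorbs2, which encodes an adaptor of muscle Z-discs, the summits lay 1397 bp apart in coding exon 14 of 22, with library values of 84.8 and 55.0 for one and 22.4 and 32.5 for the other. In Rasal2, by contrast, they lay 138988 bp apart.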

How the data were processed

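CTCF ChIP-seq peaks of postnatal heart were read from the lists the authors deposited: an optimal and a conservative list thresholded on the irreproducible discovery rate, and 1 relaxed list of 300000 peaks per library, each called against a control, per the file headers and notes deposited beside them. The authors' signal values were used as deposited, on the mm10 build and without scaling between libraries. Names of the aligner and the peak caller were not given in the sources used here.

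Summits were placed on GENCODE M21 coding sequence. Each coding base was given 1 transcript: protein-coding gene first, then principal isoform, then longest coding sequence. Densities and shares were set against all eligible coding bases, counted in full. Cores were sought on both strands with at most 2 mismatches wholly within 50 bp of the summit. Library values came from the nearest summit within 100 bp, and CpG was counted within 100 bp. The core search and the annotation steps were tested on simulated data. With 1 group of 2 libraries no test between conditions exists. Shares carry exact Clopper-Pearson 95% intervals and rates exact Poisson intervals, both for counting error only. Python 3.11.15, numpy 2.4.6, pandas 2.3.3, scipy 1.17.1 and matplotlib 3.10.9 were used.

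Genes were named by rule: the 15 strongest and 5 weakest summits, 3 on each side of the 1000 bp limit, members of 5 heart lists, genes with 3 or more summits, Ptprc, and the strongest per exon class with a full core. The one in a first coding exon is not reported here. Others named were chosen after their values were seen. The summits and the gene lists were chosen with earlier results of these data known. Alternatives covered the peak list, the library, the signal threshold, the distance to 5′ ends, the annotation, the mismatch limit and the windows.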

Additional observations from a re-analysis of the deposited data

How the results depend on the processing

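The sign of the log2 signal difference held in each alternative run. The 1043 summits became 996 when counted on the conservative list, 459 at or above the list's median signal and 768 with transcript 5′ ends. The last coding exon share became 21.1% on the conservative list, 21.8% at or above the median, 19.1% at 500 bp, 25% with transcript 5′ ends (19.4% of bases then) and 20.3 to 21.3% with either library left out. The share with a splice site within 50 bp became 47.2% at or above the median, 44.7% with transcript 5′ ends, 23.6% for 25 bp, 71.0% for 100 bp and 46.6 to 48.0% with a library left out. The log2 signal difference became -0.14 at or above the median, -0.35 with transcript 5′ ends, and -0.34 to -0.27 with a library left out. The core share became 68.3% on the conservative list, 82.1% at or above the median, 66.1% at 500 bp, 35.9% and 91.3% for at most 1 and 3 mismatches, 59.3% and 70.9% for 25 and 100 bp, and 66.0 to 67.0% with a library left out. Over all peaks of the same list or setting the core share was 74.3% on the conservative list, 85.9% at or above the median, 42.4% and 91.2% for at most 1 and 3 mismatches, 66.7% and 75.2% for 25 and 100 bp, and 71.1 to 73.3% with a library left out, so that coding exons were lower except at 3 mismatches. The sense share became 45.3% at or above the median, 42.1% at 2000 bp, 42.6% on basic transcripts, and 42.4% and 44.2% for at most 1 and 3 mismatches. The occupied share became 5.23% on the conservative list, 2.90% at or above the median, 5.50% and 5.13% at 500 and 2000 bp, 5.22% with transcript 5′ ends, 4.56% and 6.05% for 25 and 100 bp, and 5.30 to 5.39% with a library left out. Median CpG became 3 within 50 bp and 12 within 250 bp. The share in every coding transcript became 80.8% at or above the median, 80.4% with transcript 5′ ends and 80.9% on basic transcripts. The share in both libraries became 89.6% on the conservative list and 100% at or above the median. Over all peaks it was then 87.9% and 99.95%. At or above the median nearly every peak is found in both libraries, so that setting cannot separate coding exons from the rest. On the conservative list the coding share was the higher, but no interval was computed for it. Comparison values for the sense share and the share in every coding transcript were not recomputed. The cause of these shifts was not tested beyond what each setting counts. The shared-summit distance was not varied for signal, whose pooled value does not use it, and the share in both libraries has no value with a library left out. No paired analysis was possible because the study has 1 group. Read depth is unknown, so weak summits present in 1 library cannot be told apart from summits below detection in the other.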
